A study of Mus musculus with 12 samples.

Results

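The genes described are 6 genes that mark or act in lymphatic endothelium (Prox1, Lyve1, Pdpn, Mmrn1, Reln and the receptor gene Flt4), the co-receptor gene Nrp2, and the genes of 2 ligands of these receptors, Vegfc and Vegfd. They were taken by name as a list of 9 from the 56860 genes of the table, and all 9 passed the filter on low counts that left 30660 genes for testing. RNA was sequenced from 12 primary mammary tumours of mice with the MMTV-PyMT transgene, whose polyoma middle T antigen transforms the mammary gland, with 4 tumours in each of 3 genotypes. S1pr1_KO tumours carried MMTV-Cre and floxed S1pr1 (MMTV-Cre;S1pr1fl/fl). C3_KO tumours carried MMTV-Cre and the allele named C3Tdt. WT tumours carried MMTV-Cre per the design text, although their strain label names the oncogene transgene alone. All 3 genotypes shared the oncogene and the collection age of 4.5 months, and by the design text also MMTV-Cre. Since MMTV drives Cre chiefly in the mammary epithelial cells, lymphatic vessels and stroma need not lose either gene. Whether each tumour was from its own mouse is not stated, so p-values measure the spread between these samples, which may be technical.

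Lymphatic vessels drain fluid and immune cells from tissue and are a route by which mammary tumour cells reach lymph nodes. Their endothelium takes its identity from the transcription factor PROX1 and grows when VEGF-C or VEGF-D binds VEGFR-3, the receptor made from Flt4, with neuropilin 2 from Nrp2 as a co-receptor. None of the 9 genes is made by lymphatic endothelium alone: Lyve1 is also made by some tissue macrophages, Pdpn by fibroblasts and basal epithelial cells, Flt4 by some blood capillaries, and Vegfc and Vegfd by stromal cells. Whole tumours were measured, so fewer cells of a type and less RNA per cell cannot be told apart.

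Promoter windows, the 250 bases before and 50 after a gene's start, are shown for the ligand pair, to set their composition side by side, and for the 2 genes that varied most between tumours. The sequences are RefSeq's on mouse build GRCm38.p6, with every CG dinucleotide in capitals, read along the strand of the gene. RefSeq's table held windows for 8 of the 9 genes, all but Lyve1. The windows printed are Vegfc at chr8:54077282-54077581 on the plus strand, Vegfd at chrX:164373272-164373571 on the plus strand, Mmrn1 at chr6:60944067-60944366 on the plus strand and Reln at chr5:22344656-22344955 on the minus strand.
Vegfc: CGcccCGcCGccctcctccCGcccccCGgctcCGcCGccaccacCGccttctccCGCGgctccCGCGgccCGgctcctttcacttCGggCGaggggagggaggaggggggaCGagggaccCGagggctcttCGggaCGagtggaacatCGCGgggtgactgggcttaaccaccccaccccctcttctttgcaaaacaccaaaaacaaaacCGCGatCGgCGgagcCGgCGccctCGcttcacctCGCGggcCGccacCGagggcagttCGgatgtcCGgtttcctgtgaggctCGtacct
Vegfd: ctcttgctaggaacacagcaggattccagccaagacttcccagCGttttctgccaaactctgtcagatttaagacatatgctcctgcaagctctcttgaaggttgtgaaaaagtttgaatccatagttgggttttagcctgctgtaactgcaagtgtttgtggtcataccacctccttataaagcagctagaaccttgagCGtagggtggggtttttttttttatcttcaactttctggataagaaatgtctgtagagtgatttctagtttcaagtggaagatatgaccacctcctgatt
Mmrn1: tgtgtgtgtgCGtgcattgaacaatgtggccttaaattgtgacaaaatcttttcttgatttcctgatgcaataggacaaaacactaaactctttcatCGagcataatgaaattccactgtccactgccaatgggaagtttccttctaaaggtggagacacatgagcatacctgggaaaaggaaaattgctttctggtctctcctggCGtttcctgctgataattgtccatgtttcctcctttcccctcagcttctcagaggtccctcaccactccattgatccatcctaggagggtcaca
Reln: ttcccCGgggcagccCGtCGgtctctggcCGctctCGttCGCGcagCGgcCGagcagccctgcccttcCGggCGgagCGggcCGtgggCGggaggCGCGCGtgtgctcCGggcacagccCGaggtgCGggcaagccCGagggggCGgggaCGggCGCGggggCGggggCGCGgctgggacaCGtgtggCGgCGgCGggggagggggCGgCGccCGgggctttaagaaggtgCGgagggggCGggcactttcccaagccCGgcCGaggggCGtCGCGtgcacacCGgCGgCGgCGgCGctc

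The ligand pair differed in promoter composition. The Vegfc window held 35 CG dinucleotides, more than 93.0% of the 32851 windows in the table, and the Vegfd window held 2, more than 14.1%. The median window held 7. The genes of widest range differed in the same way, with 47 CG dinucleotides in the Reln window, more than 98.6% of windows, and 3 in the Mmrn1 window, more than 23.3%. Short motifs were searched on both strands, and positions count from 1 at the 5′ end of the window. The Vegfd window held TATAAA at position 178, a word found in 13.6% of all windows, and AGATAA on the reverse strand at position 222, found in 11.2%. The Mmrn1 window held AACAAT at position 20, found in 10.7% of windows, and CCAAT at position 127, found in 37.4%. The Reln window held CCGGAA on the reverse strand at position 66, found in 14.9%, and CACGTG at position 180, found in 7.15%. The Vegfc window held none of these words nor AGGTCA, which 16.3% of windows held. No 2 of the 7 words overlapped in these windows.

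Column totals were 230.4 to 484.0 M counts (M for 1e6), and the lowest count of any of the 9 genes was 32, for Mmrn1. C3 did not differ between C3_KO and WT tumours by edgeR's quasi-likelihood test (log2 fold change -0.76, SE 0.49, adjusted p = 0.765), and S1pr1 did not differ between S1pr1_KO and WT tumours (-0.17, SE 0.43, adjusted p = 0.874), so the libraries labelled by these genotypes showed no detectable loss of the targeted transcript in whole tumour. Some libraries stood apart. S1pr1_KO replicates 1 and 2 were rich in B cell transcripts, with a mean log2 CPM over 10 B cell markers of 4.02 and 3.16, against -2.64 to 0.48 in the other 10 libraries. By the same measure they were also highest for adipocyte markers (5.89 and 5.77, at most 4.36 in the others). The same held for fibroblast markers (7.52 and 7.29, at most 7.07) and lymph node stroma markers (2.37 and 1.07, at most 0.26). It also held for blood endothelial markers (4.3 and 3.89, at most 3.77) and macrophage markers (4.51 and 4.39, at most 3.92). B cell rich is thus only a label for them, and which content moved a value was not tested. S1pr1_KO replicates 1 and 4 were rich in salivary gland transcripts, with 9.40 and 5.95 over 8 markers, and C3_KO replicate 3 was rich in milk protein transcripts, with 12.3 over 8 genes. Values of the 9 genes and of the lists that turned or moved widely without these libraries are given with the result. The S1pr1 value itself was -0.95 in S1pr1_KO against WT without the 2 B cell rich libraries, and -1.11 with the blood endothelial score as a covariate (adjusted p = 0.999 and 0.931 by edgeR). CPM is counts per 1e6 counts of a library after scaling by the trimmed mean of M values.

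**Figure D1:**
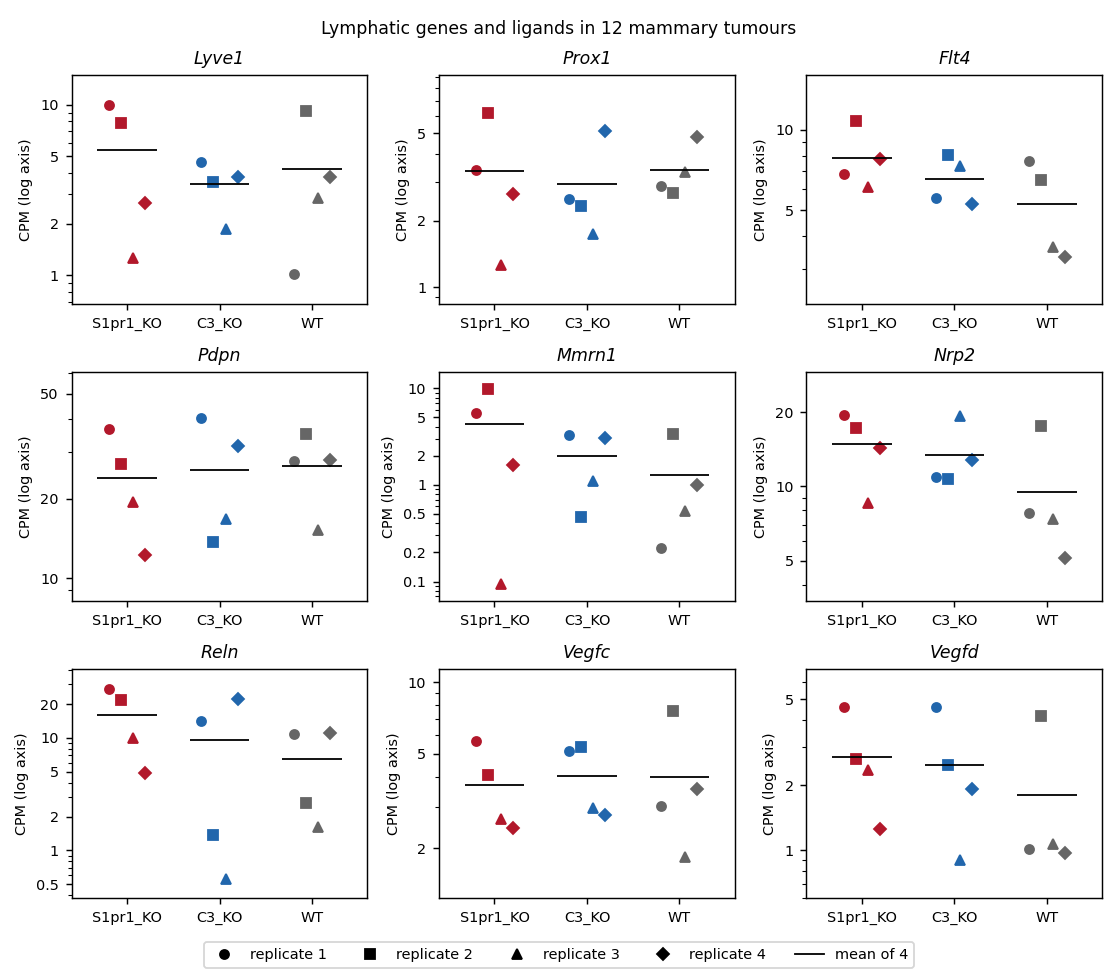
Level of each of the 9 genes in CPM (log scale) in each tumour, by genotype; each point is 1 library and the bar is the mean of 4. The groups overlap in every panel, and Mmrn1, Reln and Lyve1 spread most.

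Compared per length, in FPKM (fragments per kilobase of gene and per 1e6 counts), Pdpn was the highest of the 9 genes and Prox1 the lowest. Pdpn averaged 14.2 FPKM over the 12 tumours, above 85.8% of the genes tested, and it exceeded Vegfc, the next gene, in 12 of 12 tumours. Vegfc averaged 1.61 FPKM, Lyve1 1.54, Nrp2 1.09, Vegfd 0.983, Flt4 0.817, Mmrn1 0.476, Reln 0.475 and Prox1 0.404 FPKM. Below Pdpn, neighbours in this order did not stand apart. The upper gene exceeded the next in 6 to 8 of 12 tumours, except Flt4, which exceeded Mmrn1 in 10 of 12. Prox1, the gene that defines lymphatic identity, lay above 35.3% of the genes tested. The deposited lengths of Reln (23738 bases) and Nrp2 (11842 bases) exceed the longest transcript in a GENCODE annotation of the older build (11699 and 6723 bases), so a length nearer to the transcript would move both genes up in this order.

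**Figure D2:**
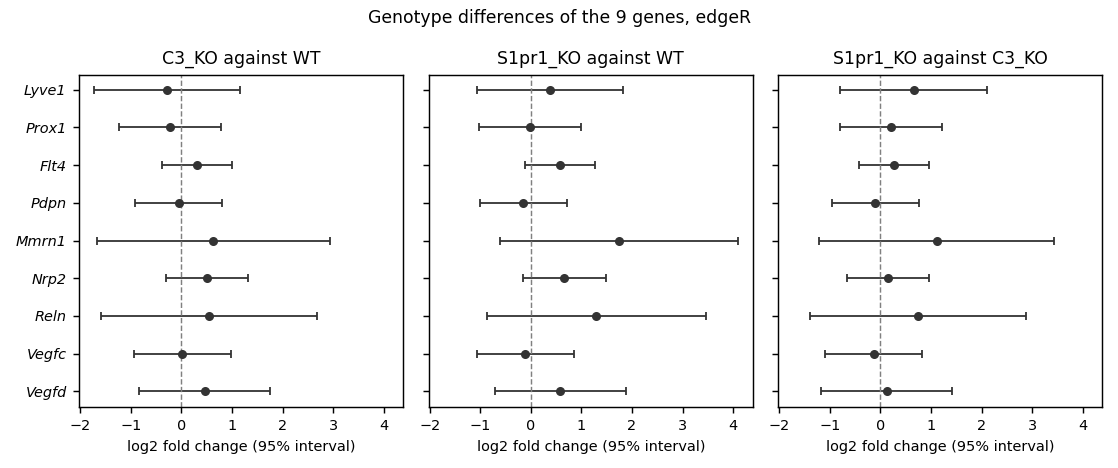
Log2 fold change of each of the 9 genes with its 95% interval from edgeR's quasi-likelihood fit, for S1pr1_KO against WT, C3_KO against WT and S1pr1_KO against C3_KO. Every interval includes 0, and those of Mmrn1 and Reln are the widest.

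None of the 9 genes differed between genotypes beyond the spread between tumours. By edgeR's quasi-likelihood test with Benjamini-Hochberg adjustment over all 30660 genes, 0 of 9 passed an adjusted p of 0.05 in S1pr1_KO against WT, C3_KO against WT or S1pr1_KO against C3_KO. The share called among all genes was 0.0% in each comparison, so this count says nothing particular to these genes. At an unadjusted p under 0.05, 0 of 9 passed in each comparison, beside 15.5% of all genes in S1pr1_KO against WT, 6.23% in C3_KO against WT and 3.4% in S1pr1_KO against C3_KO. The 4 tumours of a genotype never lay all above or all below those of another for any of the 9, beside 7.58%, 3.04% and 1.31% of all genes in the same order of comparisons. The median log2 fold change of the 9 was 0.58 in S1pr1_KO against WT with 6 higher and 3 lower, and 0.31 in C3_KO against WT with 6 higher and 3 lower. Over all genes tested these medians were 0.03 and 0.05, with 51.7% and 54.2% of genes higher. Both comparisons use the same WT tumours. Between the knockouts the median was 0.20 with 7 higher and 2 lower, and over all genes it was -0.03. When S1pr1_KO replicates 1 and 2, the B cell rich libraries, were left out, 3 of the 9 were higher and 6 lower in S1pr1_KO against WT (median -0.58), and 1 was higher and 8 lower in S1pr1_KO against C3_KO (median -0.58).

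By other tools, DESeq2 called 888 genes in S1pr1_KO against WT, 83 in C3_KO against WT and 121 between the knockouts, each of 44643. None of the 9 was among them. Limma-voom with sample quality weights called 7828, 5 and 0 of 30660 genes in the same order. Of the 9 genes, 2 were among the 7828, Flt4 (log2 fold change 1.06, adjusted p = 0.0135 by limma-voom) and Nrp2 (1.15, adjusted p = 0.0143 by limma-voom). No other fit called them. Beside 7828 of 30660 genes, 2 of 9 says nothing particular to these genes.

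Prox1, the transcription factor of lymphatic identity, had nearly the same mean in S1pr1_KO and WT tumours. It had 3.40, 6.14, 1.26 and 2.65 CPM in S1pr1_KO tumours, 2.52, 2.34, 1.73 and 5.10 CPM in C3_KO tumours, and 2.87, 2.66, 3.32 and 4.79 CPM in WT tumours. The WT values lay within the range of S1pr1_KO values. Means were 3.36 ± 2.06 CPM in S1pr1_KO, 2.92 ± 1.49 in C3_KO and 3.41 ± 0.958 in WT tumours (SD, n = 4 each). The log2 fold change was -0.02 in S1pr1_KO against WT (95% interval -1.03 to 0.99, adjusted p = 0.988 by edgeR) and -0.22 in C3_KO against WT (-1.23 to 0.78, adjusted p = 0.915 by edgeR). Leaving out the 2 B cell rich libraries gave -0.81 for S1pr1_KO. Without the 3 milk or salivary rich libraries the values were 0.17 and 0.0009. The annotation places antisense genes Prox1os and Gm28172 over Prox1, and how strand was counted is not given in the sources used here, so its level is uncertain.

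Lyve1, a hyaluronan receptor of lymphatic capillaries, varied widely within each genotype. It had 10.0, 7.78, 1.26 and 2.64 CPM in S1pr1_KO tumours, 4.60, 3.52, 1.87 and 3.79 CPM in C3_KO tumours, and 1.01, 9.18, 2.83 and 3.76 CPM in WT tumours. High values stood in S1pr1_KO replicates 1 and 2 and in WT replicate 2, and the highest value was 9.89 times the lowest. In S1pr1_KO against WT the log2 fold change was 0.37 (SE 0.67, interval -1.07 to 1.82, adjusted p = 0.814 by edgeR) and -0.29 in C3_KO against WT (SE 0.67, interval -1.73 to 1.16, adjusted p = 0.925 by edgeR). The S1pr1_KO value turned to -1.11 without the 2 B cell rich libraries.

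Pdpn, a mucin-type membrane protein of lymphatic endothelium that binds the platelet receptor CLEC-2, was the most abundant of the 9. It had 36.7, 27.2, 19.5 and 12.3 CPM in S1pr1_KO tumours, 40.4, 13.7, 16.8 and 31.7 CPM in C3_KO tumours, and 27.9, 35.3, 15.2 and 28.1 CPM in WT tumours. Low and high tumours stood in every genotype. The log2 fold change was -0.16 in S1pr1_KO against WT (SE 0.40, interval -1.01 to 0.70, adjusted p = 0.873 by edgeR) and -0.05 in C3_KO against WT (SE 0.40, interval -0.91 to 0.81, adjusted p = 0.979 by edgeR). The S1pr1_KO value was -0.75 without the 2 B cell rich libraries, and the C3_KO value was 0.13 without the 3 milk or salivary rich ones.

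Mmrn1 encodes multimerin 1, a large secreted glycoprotein of endothelium and platelets, and had the widest range of the 9. It had 5.57, 9.88, 0.0936 and 1.62 CPM in S1pr1_KO tumours, 3.31, 0.471, 1.09 and 3.08 CPM in C3_KO tumours, and 0.222, 3.37, 0.539 and 0.986 CPM in WT tumours. Both the highest and the lowest value were S1pr1_KO tumours, replicates 2 and 3, which differed 105.5-fold. Its SD of log2 CPM within a genotype, 2.10, exceeded that of 98.0% of the genes tested. Its log2 fold change was 1.74 in S1pr1_KO against WT (SE 1.09, interval -0.61 to 4.10, adjusted p = 0.450 by edgeR) and 0.63 in C3_KO against WT (SE 1.06, interval -1.67 to 2.93, adjusted p = 0.891 by edgeR). This S1pr1_KO value turned to -0.58 without the 2 B cell rich libraries. It ran from 0.92, without S1pr1_KO replicate 2, to 2.88, without WT replicate 2 (adjusted p = 0.257 by edgeR), when 1 library was left out.

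Reln encodes reelin, a secreted matrix protein known for positioning neurons, which lymphatic endothelium of mice also makes. It had 27.5, 21.7, 10.0 and 4.86 CPM in S1pr1_KO tumours, 14.0, 1.38, 0.561 and 22.2 CPM in C3_KO tumours, and 10.8, 2.64, 1.62 and 11.0 CPM in WT tumours. C3_KO and WT tumours each split into a low and a high pair, and the highest value of the series was 48.97 times the lowest. The SD within a genotype was 1.81 on the log2 scale, above that of 96.7% of genes tested. The log2 fold change was 1.30 in S1pr1_KO against WT (SE 1.00, interval -0.87 to 3.46, adjusted p = 0.544 by edgeR) and 0.55 in C3_KO against WT (SE 0.99, interval -1.59 to 2.69, adjusted p = 0.897 by edgeR). Leaving out the 2 B cell rich libraries gave 0.19 for S1pr1_KO. The annotation places 7 other genes, 4 of them on the opposite strand, over Reln, so its level is uncertain.

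The receptor genes varied least, with an SD of log2 CPM within a genotype of 0.437 for Flt4 and 0.573 for Nrp2. Flt4 had 6.82, 10.8, 6.09 and 7.75 CPM in S1pr1_KO tumours, 5.56, 8.05, 7.35 and 5.27 CPM in C3_KO tumours, and 7.65, 6.49, 3.64 and 3.32 CPM in WT tumours. WT replicates 3 and 4 were the 2 lowest of the 12, and the other WT tumours lay among the knockout values. Means were 7.86 ± 2.06 CPM in S1pr1_KO, 6.56 ± 1.35 in C3_KO and 5.28 ± 2.12 in WT tumours (SD, n = 4 each). The log2 fold change was 0.58 in S1pr1_KO against WT (SE 0.32, interval -0.12 to 1.27, adjusted p = 0.398 by edgeR). It was 0.31 in C3_KO against WT (SE 0.32, interval -0.38 to 1.01, adjusted p = 0.817 by edgeR).

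Nrp2, whose product binds VEGF-C and class 3 semaphorins, had 19.4, 17.3, 8.55 and 14.3 CPM in S1pr1_KO tumours. It had 10.9, 10.7, 19.3 and 12.8 CPM in C3_KO tumours and 7.79, 17.5, 7.36 and 5.14 CPM in WT tumours. In WT, 3 tumours were below all 8 knockout tumours and replicate 2 was not. Its log2 fold change was 0.66 in S1pr1_KO against WT (SE 0.38, interval -0.17 to 1.48, adjusted p = 0.415 by edgeR) and 0.51 in C3_KO against WT (SE 0.38, interval -0.31 to 1.33, adjusted p = 0.773 by edgeR). Leaving out WT replicate 2 gave 1.14 for S1pr1_KO and 0.99 for C3_KO, and leaving out the 2 B cell rich libraries gave 0.27 for S1pr1_KO. Genes Gm29083, on the opposite strand, and Gm37121 overlap Nrp2 in the annotation.

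For the ligand genes the groups overlapped and no difference passed. Vegfc, the main growth factor of lymphatic vessels, had 5.65, 4.06, 2.66 and 2.45 CPM in S1pr1_KO tumours, 5.14, 5.36, 2.96 and 2.76 CPM in C3_KO tumours, and 3.02, 7.60, 1.85 and 3.56 CPM in WT tumours. The highest and the lowest value were both WT. In S1pr1_KO against WT the log2 fold change was -0.11 (SE 0.44, interval -1.07 to 0.84, adjusted p = 0.920 by edgeR) and 0.02 in C3_KO against WT (SE 0.44, interval -0.94 to 0.97, adjusted p = 0.995 by edgeR). The S1pr1_KO value was -0.65 without the 2 B cell rich libraries.

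Vegfd, the second ligand of VEGFR-3, had 4.58, 2.64, 2.35 and 1.26 CPM in S1pr1_KO tumours. It had 4.60, 2.48, 0.90 and 1.93 CPM in C3_KO tumours and 1.02, 4.17, 1.07 and 0.968 CPM in WT tumours. WT replicate 2 stood far above the other WT tumours and within the range of both knockouts. The log2 fold change was 0.58 in S1pr1_KO against WT (SE 0.60, interval -0.72 to 1.89, adjusted p = 0.661 by edgeR) and 0.46 in C3_KO against WT (SE 0.60, interval -0.84 to 1.76, adjusted p = 0.859 by edgeR). Without WT replicate 2 the C3_KO value was 1.28, and without C3_KO replicate 1 it was -0.032. The S1pr1_KO value was -0.0026 without the 2 B cell rich libraries.

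Between the knockouts, all 9 genes had an adjusted p of 1.0 by edgeR, and the smallest unadjusted p was 0.319. Mmrn1 had the largest log2 fold change in S1pr1_KO against C3_KO, 1.11 (interval -1.21 to 3.43), followed by Reln at 0.74 and Lyve1 at 0.66. The other 6 lay from -0.13 for Vegfc to 0.26 for Flt4. Without the 2 B cell rich libraries Mmrn1 was -1.21, Lyve1 -0.82, Prox1 -0.58, Vegfd -0.46, Reln -0.36 and Nrp2 -0.23, and without the 3 milk or salivary rich libraries Vegfd was -0.23.

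**Figure D3:**
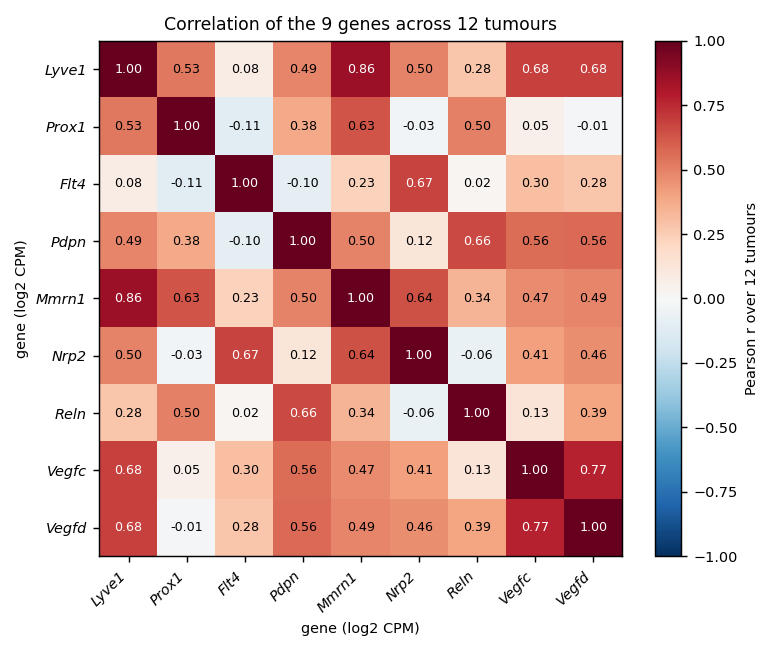
Pearson correlation of log2 CPM over the 12 tumours for each of the 36 pairs of the 9 genes. Lyve1 and Mmrn1 are the most alike (0.86), and Prox1 and Flt4 the least (-0.11).

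Across tumours most pairs of the 9 genes were positively correlated, and 1 pair passed. Correlations of log2 CPM were computed over the 12 tumours for all 36 pairs, of which 31 were positive and 5 negative, from -0.11 to 0.86 with a median of 0.44. By permutation, 8 pairs had p under 0.05 and 1 passed Benjamini-Hochberg adjustment over the 36. With log2(FPKM + 1) in place of log2 CPM, 12 of the 36 passed. The share over all pairs of genes was not computed. With 12 tumours, a pair that did not pass is not shown to be unrelated. The pair that passed in log2 CPM was Lyve1 and Mmrn1, with Pearson's r of 0.86 (permutation p = 0.00042, adjusted p = 0.0151) and Spearman's rho of 0.86 (permutation p = 0.00063, adjusted p = 0.0227). Without WT replicate 1 and S1pr1_KO replicate 3, the tumours farthest from the median of Lyve1, r was 0.74. With each value centred on its genotype's mean, r was 0.87 and the adjusted p from permutation within genotypes was 0.0673. Without the 2 B cell rich libraries r was 0.80 and the adjusted p by permutation was 0.201.

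Vegfc and Vegfd were the next pair, with r of 0.77 (permutation p = 0.00463, adjusted p = 0.0833) and rho of 0.63 (permutation p = 0.0328, adjusted p = 0.148), which did not pass. Without the 2 tumours farthest from the median of Vegfc, r was 0.70. Lyve1 had r of 0.68 with both Vegfc and Vegfd (permutation, adjusted p = 0.120 each). Flt4 and Nrp2 had r of 0.67 (permutation, adjusted p = 0.120) and rho of 0.45. That relation rested on WT replicates 3 and 4, since r was 0.24 without them. Pdpn and Reln had r of 0.66 (permutation, adjusted p = 0.124). Prox1, the identity factor, had r of 0.63 with Mmrn1 (permutation, adjusted p = 0.124), which fell to 0.18 without the 2 tumours farthest from the median of Prox1, and r of -0.11 with Flt4.

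**Figure D4:**
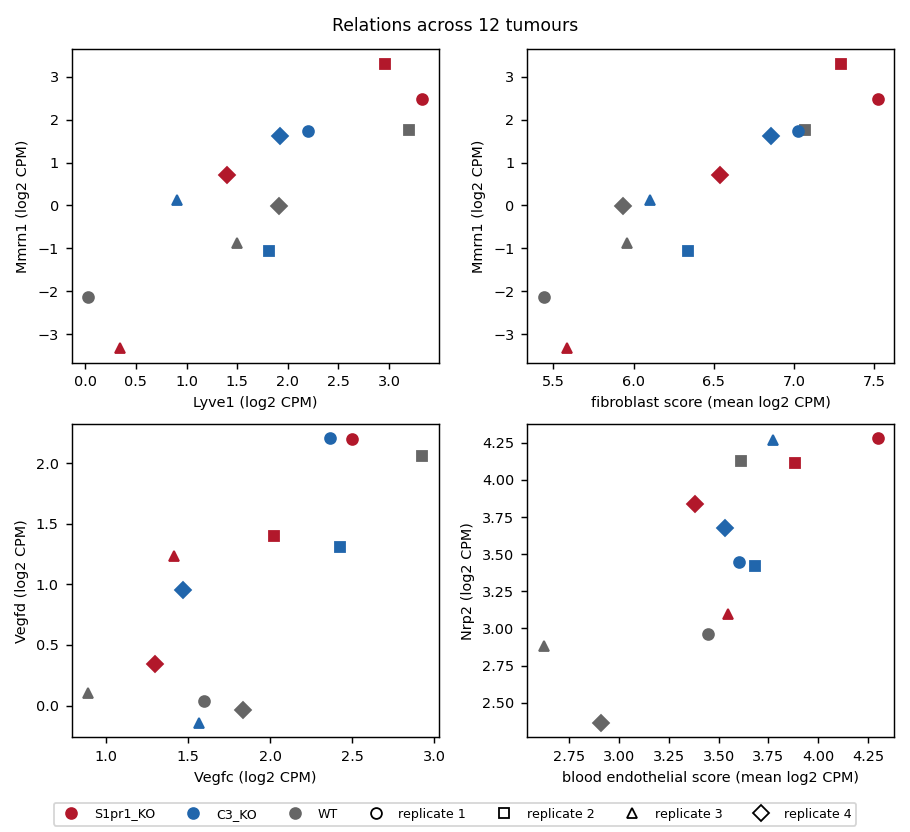
Mmrn1 against Lyve1, Mmrn1 against the fibroblast score, Vegfd against Vegfc and Nrp2 against the blood endothelial score in the 12 tumours, in log2 CPM, with colour for genotype and shape for replicate. S1pr1_KO replicates 1 and 2 and WT replicate 2 stand at the high end for Lyve1, and S1pr1_KO replicate 3 and WT replicate 1 at the low end.

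Lists of markers of the cell types that a whole tumour can hold were set beside these genes. A score is the mean log2 CPM of a list, and 9 genes by 12 lists gave 108 correlations over the 12 tumours, of which 29 had a permutation p under 0.05 and 6 passed Benjamini-Hochberg adjustment over the 108. Mmrn1 and Lyve1 went with the 10 fibroblast markers, which include the collagen genes Col1a1 and Col3a1. For Mmrn1 r was 0.93 (permutation p = 3e-05, adjusted p = 0.00324; rho 0.94, adjusted p = 0.0054), and for Lyve1 r was 0.91 (permutation p = 7e-05, adjusted p = 0.00378; rho 0.89, adjusted p = 0.013). Without the 2 tumours farthest from each gene's median, r was 0.93 for Mmrn1 and 0.83 for Lyve1. Both also passed in each of the 12 fits that left out 1 library, and with genotype-centred values (r 0.93 and 0.95, permutation, adjusted p = 0.0389 and 0.0238). Without the 2 B cell rich libraries r was 0.90 and 0.85, and neither passed by permutation (adjusted p = 0.0583 and 0.0848).

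Both genes also went with 9 adipocyte markers, Lyve1 with r of 0.84 (permutation p = 0.00085, adjusted p = 0.0306; rho 0.79) and Mmrn1 with r of 0.80 (permutation p = 0.00221, adjusted p = 0.0477; rho 0.81), as did Vegfd with r of 0.80 (permutation p = 0.00272, adjusted p = 0.0490; rho 0.85). Without the 2 tumours farthest from each gene's median, these were 0.78, 0.77 and 0.77. Without the 2 B cell rich libraries they were 0.74, 0.66 and 0.80, and none passed (permutation, adjusted p = 0.224, 0.323 and 0.194). Leaving out WT replicate 1 alone, none passed either (permutation, adjusted p = 0.0655, 0.078 and 0.078). With genotype-centred values Lyve1 passed, but Mmrn1 and Vegfd did not (permutation, adjusted p = 0.0389, 0.0939 and 0.0939). All 3 also went with 15 macrophage markers by rank, with rho of 0.80 for Lyve1, 0.82 for Mmrn1 and 0.80 for Vegfd (permutation, adjusted p = 0.0408 each), while Pearson's r of 0.77 for each just missed (permutation, adjusted p = 0.0519 each). Lyve1 and Mmrn1 had r of -0.76 and -0.75 with luminal epithelial markers (permutation, adjusted p = 0.0519 each). The lists move together, since the fibroblast score had r of 0.93 with the adipocyte score, 0.87 with the macrophage score and -0.79 with the luminal score, so their parts in these relations cannot be told apart.

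Among the receptor genes, Nrp2 went with the list named blood endothelial, which holds genes such as Pecam1, Cdh5 and Tie1. Whether lymphatic endothelium also adds to that score was not tested. Nrp2 had r of 0.78 with 20 blood endothelial markers (permutation p = 0.00168, adjusted p = 0.0454; rho 0.78), and r of 0.65 without the 2 tumours farthest from its median. With genotype-centred values r was 0.67 and did not pass by permutation (adjusted p = 0.222). With 1 library left out r was 0.72 to 0.81. Several of those fits did not pass, such as that without S1pr1_KO replicate 1 (permutation, adjusted p = 0.11). Without the 2 B cell rich libraries r was 0.70 and did not pass (permutation, adjusted p = 0.273). Nrp2 was nearly as close to the adipocyte and fibroblast lists, with r of 0.72 and 0.71, which did not pass (permutation, adjusted p = 0.0713 and 0.0756). Flt4 had r of 0.74 with the same list (permutation, adjusted p = 0.0667), and 0.23 without WT replicates 3 and 4. Lyve1 and Mmrn1 had 0.38 and 0.44 with this list, and Prox1 had -0.10. With 8 platelet and megakaryocyte markers, which mark the other known source of multimerin 1, Mmrn1 had r of 0.13 (permutation, adjusted p = 0.803). Pdpn and Reln had r of 0.65 and 0.61 with 8 basal and myoepithelial markers, and neither passed (permutation, adjusted p = 0.123 and 0.148).

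**Figure D5:**
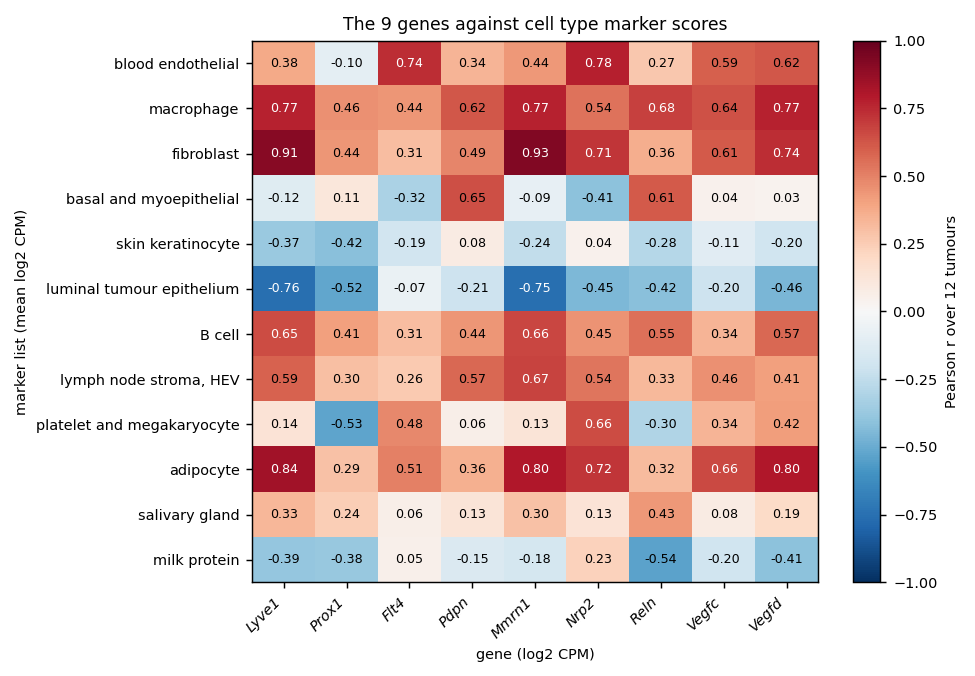
Pearson correlation over the 12 tumours of each of the 9 genes with the mean log2 CPM of 12 marker lists. Lyve1 and Mmrn1 are highest with fibroblast markers (0.91 and 0.93), and Nrp2 with blood endothelial markers (0.78).

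The marker levels themselves ranged as follows. The summed level of 10 fibroblast markers was 1990 to 4390 CPM in S1pr1_KO tumours, 2370 to 4170 CPM in C3_KO tumours and 1620 to 4290 CPM in WT tumours, and no marker was at 0 in any of them. For 20 blood endothelial markers it was 320 to 550 CPM in S1pr1_KO, 354 to 436 CPM in C3_KO and 207 to 373 CPM in WT tumours, again with none at 0. Of these 20, 19 had a positive log2 fold change in S1pr1_KO against WT and 19 in C3_KO against WT, with medians of 0.67 and 0.49, and 0 passed by edgeR. With the 2 B cell rich libraries left out, 16 were higher and 4 lower in S1pr1_KO against WT (median 0.30), and of the 10 fibroblast markers 5 were higher and 5 lower (median 0.03, against 0.81 with all libraries). For 15 macrophage markers it was 546 to 631 CPM in S1pr1_KO, 389 to 630 CPM in C3_KO and 418 to 633 CPM in WT tumours, and for 9 adipocyte markers 175 to 865, 172 to 345 and 183 to 287 CPM in the same order of genotypes. Beside the values of Lyve1, Mmrn1, Nrp2 and Flt4, the part that any of these cell types had in them was not tested. With the blood endothelial score as a covariate the log2 fold change in S1pr1_KO against WT was 0.17 for Flt4, 0.046 for Nrp2, -0.82 for Lyve1, -0.97 for Vegfc, -0.86 for Pdpn, 0.34 for Mmrn1, 0.48 for Reln, -0.36 for Vegfd and 0.029 for Prox1. Vegfc had an unadjusted p of 0.0446 in that edgeR fit and an adjusted p of 0.931. How much lymphatic endothelial RNA this score also holds, and the fit thereby takes out, was not tested.

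Other genes of most similar pattern were ranked among the 15870 genes whose average log2 CPM reached 1, by Pearson's r over the 12 tumours, as a description. For Mmrn1 these were Fmo2 (0.98), Colec12 (0.97) and Fap (0.96), the last a membrane protease of activated fibroblasts and one of the fibroblast markers. For Lyve1 they were Dpt (0.95), the dermatopontin gene and another of those markers, Medag (0.95) and Ccdc80 (0.94). For Vegfd they were Cpz (0.95), Grin2d (0.94) and Mfap2 (0.92), and for Vegfc Dnajc27 (0.90), Unc45b (0.89) and Cap2 (0.89). For Nrp2 they were Pcsk5 (0.94), Cyth3 (0.94) and Phactr2 (0.93). Pcsk5 encodes a proprotein convertase that can cut VEGF-C, and is in the list of VEGF-C processing genes. For Flt4 they were Gm11149 (0.91), Gm15587 (0.90) and Col15a1 (0.89), a collagen gene of basement membranes. For Reln they were Slc12a4 (0.97), Lamc3 (0.96) and Ntng2 (0.95), for Pdpn Dpysl3 (0.90), H2-M2 (0.89) and Ltk (0.88), and for Prox1 Zfp964 (0.90), Pik3cg (0.87) and Zfp560 (0.87). Among all 30659 other genes tested, Mmrn1 ranked 118 by likeness to Lyve1 and Lyve1 504 by likeness to Mmrn1.

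Among genes of the same pathways, 0 passed in any list or comparison by edgeR. A list of 22 other lymphatic endothelial genes and regulators had 18 higher and 4 lower in S1pr1_KO against WT (median log2 fold change 0.74), and 18 higher and 4 lower in C3_KO against WT (median 0.38). At an unadjusted p under 0.05, 6 and 0 of the 22 passed, beside 15.5% and 6.23% of all genes in these comparisons. The score of the list was 2.6 and 2.26 in the B cell rich S1pr1_KO replicates 1 and 2, but 1.18 and 1.38 in replicates 3 and 4, against 0.97 to 1.58 in WT tumours. Without the 2 B cell rich libraries 13 were higher and 9 lower in S1pr1_KO against WT, with a median of 0.09. The list shares Ccl21a, Clec4g and Madcam1 with the lymph node stroma markers and Maf with the macrophage markers. The 2 of smallest p were Syk, a kinase needed to keep lymphatic and blood vessels apart and also made by B cells, and Nfatc1, a transcription factor of lymphatic valves. Syk had 30.1, 30.3, 10.0 and 12.8 CPM in S1pr1_KO tumours against 7.92, 10.2, 5.80 and 6.54 CPM in WT tumours (log2 fold change 1.45, SE 0.36, adjusted p = 0.197 by edgeR). Its 2 highest values stood in the B cell rich libraries, and the part of B cells in them was not tested. Nfatc1 had 16.4, 14.4, 13.5 and 14.4 CPM in S1pr1_KO tumours against 10.5, 7.67, 7.28 and 7.61 CPM in WT tumours (log2 fold change 0.82, SE 0.21, adjusted p = 0.197 by edgeR). The 4 S1pr1_KO tumours lay above the 4 WT tumours for Nfatc1, as 7.58% of all genes did in one direction or the other.

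The list drawn up for VEGF-C processing and secretion holds 7 genes, not all of them proteases. It had 6 higher and 1 lower in S1pr1_KO against WT (median 0.41) and 7 higher in C3_KO against WT (median 0.31). That S1pr1_KO median was 0.23 without the 2 B cell rich libraries. Svep1, a large matrix protein of lymphatic development, had 103, 99.5, 27.2 and 64.0 CPM in S1pr1_KO tumours against 14.8, 37.9, 15.7 and 18.7 CPM in WT tumours (log2 fold change 1.75, SE 0.45, adjusted p = 0.204 by edgeR), and the groups overlapped. Pcsk7, another convertase, was at 0.31 in C3_KO against WT (adjusted p = 0.765 by edgeR). Of 6 other VEGF ligand and receptor genes, 3 were higher and 3 lower in S1pr1_KO against WT (median 0.09) and 5 higher and 1 lower in C3_KO against WT (median 0.47, or 0.17 without the 3 milk or salivary rich libraries). The receptors of smallest p were Nrp1 (log2 fold change 1.07 in S1pr1_KO against WT, adjusted p = 0.220 by edgeR) and Kdr, which encodes VEGFR-2 (0.91, adjusted p = 0.242 by edgeR). The 10 genes of the angiopoietin and adrenomedullin axis had 6 higher and 4 lower in S1pr1_KO against WT (median 0.55, or 0.34 without the 2 B cell rich libraries) and 9 higher and 1 lower in C3_KO against WT (median 0.65), with Ptprb at 1.24 (adjusted p = 0.234 by edgeR) and Tek at 1.29 (adjusted p = 0.237 by edgeR) in S1pr1_KO against WT.

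The 9 semaphorin and plexin partners of neuropilins had 7 higher and 2 lower in S1pr1_KO against WT (median 0.54, or 0.23 without the 2 B cell rich libraries) and 9 higher in C3_KO against WT (median 0.47). Plxna2 (0.97, adjusted p = 0.241 by edgeR) and Sema3g (1.14, adjusted p = 0.286 by edgeR) had the smallest p, both in S1pr1_KO against WT. The 10 genes of hyaluronan synthesis and turnover, which make, clear or bind the ligand of LYVE1, had 6 higher and 4 lower in each comparison with WT (medians 0.08 in S1pr1_KO and 0.16 in C3_KO). Has3, a hyaluronan synthase, had 26.8, 24.1, 55.9 and 26.4 CPM in S1pr1_KO tumours against 72.6, 52.4, 57.3 and 66.3 CPM in WT tumours (log2 fold change -0.90, SE 0.31, adjusted p = 0.241 by edgeR), and S1pr1_KO replicate 3 lay within the WT range. Stab1, a scavenger receptor that takes up matrix ligands, was at 0.69 in S1pr1_KO against WT (adjusted p = 0.250 by edgeR). The 3 reelin receptor and adaptor genes had 2 higher and 1 lower in S1pr1_KO against WT (median 0.21, or -0.08 without the 2 B cell rich libraries) and 3 higher in C3_KO against WT (median 0.67, or 0.35 without the 3 milk or salivary rich ones). The reelin receptor gene Lrp8 was at 0.67 and the adaptor gene Dab1 at 1.45 in C3_KO against WT (adjusted p = 0.766 and 0.765 by edgeR), with Dab1 under 0.5 CPM in every tumour. The 6 podoplanin partners had 5 higher and 1 lower in both, with a median of 0.21 in each. Clec1b, which encodes the podoplanin receptor CLEC-2, had 0.355, 0.511, 0.255 and 0.119 CPM in S1pr1_KO tumours against 0.0775, 0.210, 0.0793 and 0.0465 CPM in WT tumours (log2 fold change 1.58, SE 0.58, adjusted p = 0.254 by edgeR), and the groups overlapped. Msn, which encodes moesin, a linker of podoplanin to actin, was at 0.35 in C3_KO against WT (adjusted p = 0.765 by edgeR).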

How the data were processed

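Total RNA of 12 tumours was sequenced, and groups came from the genotype label. Replicates were numbered in accession order, so a number only names a library. The authors deposited a table of raw counts per gene and a table of FPKM values for the whole series. A total of 682317 of 682320 FPKM values equalled count, deposited gene length and column total combined, within a relative 1e-04, so FPKM was used for levels per length only. The gene length in bases is the authors' deposited column. The submitters' processing notes name StringTie and build GRCm39 (mm39). No source used here gives the aligner, the counting program or its strand setting. Among counts of 1 to 50, 60.2 to 64.4% were even, so a read pair may have been counted once per mate and totals may overstate fragments.

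Counts were tested in R 4.3.3 with edgeR 4.0.16 (filterByExpr, trimmed mean of M values, robust quasi-likelihood F-test, a mean per genotype, 9 residual degrees of freedom), with Benjamini-Hochberg adjustment over 30660 genes and a threshold of 0.05. The common biological coefficient of variation was 0.564. The script was tested on simulated data with 200 changed genes. SE and 95% intervals come from the F statistic. Log2 CPM used a prior count of 2, and correlations used 100000 permutations (all permutations where 9 libraries were left) in Python 3.11.15 with numpy 2.4.6 and scipy 1.17.1. DESeq2 1.42.0 and limma 3.58.1 gave alternatives, with log2(FPKM + 1) for the FPKM fit. Other alternatives changed the scaling, the filter on low counts, the libraries or the covariate.

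The 9 genes and the 20 other lists were chosen with earlier results of these data known. Correlations with marker lists, their alternatives, and the list counts without libraries that stood apart were added after values had been seen. All 9 genes, C3 and S1pr1 were named, with the 2 genes of smallest p in a comparison with WT of each pathway list, and 3 genes of most similar pattern for each of the 9. Overlaps with other genes came from GENCODE vM21 and promoter windows from RefSeq on GRCm38.p6, both of an older build than the counts.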

Additional observations from a re-analysis of the deposited data

Results flagged for a closer look

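Among 33 groups of 4 libraries examined (the 9 genes, C3 and S1pr1 in 3 genotypes), 1 held a library far from the others by Dixon's test at the 95% level. Vegfd had 4.17 CPM in WT replicate 2, against 1.02, 1.07 and 0.968 CPM in the other WT tumours, a gap of 0.969 of the group's range. Chance flags about 1 in 20 such groups. The same library had the highest Vegfc (7.60 CPM) and the highest WT value of Lyve1 (9.18 CPM) and Mmrn1 (3.37 CPM). Its fibroblast and adipocyte marker scores (mean log2 CPM), 7.07 and 4.05, were the highest of the 4 WT tumours. So were its macrophage, blood endothelial, lymph node stroma and platelet scores (3.86, 3.61, -0.35 and -1.56). The part of those cell types in its values was not tested.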

How the results depend on the processing

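No paired analysis was possible because the labels carry no shared replicate numbers. For the 9 genes, C3 and S1pr1, 29 log2 fold changes were followed under 10 alternatives, not counting those that left out 1 library, and 37 of 290 values changed sign. In C3_KO against WT these were, under limma-voom with quality weights, 0.052 for Lyve1 and 0.15 for Pdpn. They were 0.0034 and 0.0078 on log2(FPKM + 1), and 0.0045 for Pdpn under the filter on CPM. Without the 3 milk or salivary rich libraries Prox1 was 0.0009 and Pdpn 0.13. With the blood endothelial score as a covariate, Flt4 was -0.017, Mmrn1 -0.10, Vegfc -0.57 and Vegfd -0.11. In S1pr1_KO against WT, Prox1 was 0.082 under limma-voom, 0.049 on log2(FPKM + 1), 0.17 without the 3 libraries, 0.068 under the filter on CPM, 0.0043 by DESeq2, 0.0041 with relative log expression scaling, 0.026 with no filter and 0.029 with the covariate. Vegfc was 0.17 under limma-voom and 0.064 on log2(FPKM + 1), and S1pr1 was 0.39 and 0.012. With the covariate Lyve1 was -0.82 and Vegfd -0.36, and without the 2 B cell rich libraries Lyve1 was -1.11, Mmrn1 -0.58 and Vegfd -0.0026. In S1pr1_KO against C3_KO, Vegfd was -0.23 without the 3 libraries and -0.25 with the covariate, where Nrp2 was -0.0028. Without the 2 B cell rich libraries Lyve1 was -0.82, Prox1 -0.58, Mmrn1 -1.21, Nrp2 -0.23, Reln -0.36 and Vegfd -0.46. The cause was not tested.

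Leaving out 1 library at a time changed a sign in 15 of the 29. In C3_KO against WT the ranges were -0.61 to 0.44 for Lyve1, -0.64 to 0.023 for Prox1, -0.36 to 0.15 for Pdpn, -0.29 to 0.96 for Reln, -0.22 to 0.53 for Vegfc and -0.032 to 1.28 for Vegfd. In S1pr1_KO against WT they were -0.048 to 1.10 for Lyve1, -0.49 to 0.30 for Prox1, -0.38 to 0.060 for Pdpn, -0.36 to 0.40 for Vegfc and -0.49 to 0.12 for S1pr1. In S1pr1_KO against C3_KO they were -0.26 to 0.61 for Prox1, -0.35 to 0.21 for Pdpn, -0.37 to 0.034 for Vegfc and -0.21 to 0.61 for Vegfd.

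Counts of all genes called were 0 by edgeR in each comparison. In S1pr1_KO against WT they were 888 by DESeq2, 7828 by limma-voom, 33 on log2(FPKM + 1), 10 with no filter, 23 with the filter on CPM, 68 with only the 2 genotypes, and 0 to 1330 with 1 library left out, the last without S1pr1_KO replicate 3. In C3_KO against WT they were 83 by DESeq2, 5 by limma-voom, 1 on log2(FPKM + 1) and 0 to 8 with 1 library left out. In S1pr1_KO against C3_KO they were 121 by DESeq2 and 0 to 3. Of the 9 genes, 0 were called, except 2 by limma-voom in S1pr1_KO against WT, beside 7828 of 30660 genes. Of the 36 pairs, 1 passed, against 0 with genotype-centred values, 12 on log2(FPKM + 1), 0 without the 2 B cell rich libraries, and 0 to 3 with 1 library left out. FPKM is scaled by column totals, not by trimmed means. Lyve1 and Mmrn1 had r of 0.83 to 0.88 with 1 library left out, and did not pass without S1pr1_KO replicate 1 (permutation, adjusted p = 0.0536). Of the 108 correlations with marker lists 6 passed, against 3 with genotype-centred values, 2 without the 3 milk or salivary rich libraries, 0 without the 2 B cell rich ones and 2 to 13 with 1 library left out. In the comparisons with WT, medians of the other lists turned in 7 of 80 values. Without the 2 B cell rich libraries, in S1pr1_KO against WT, these were -0.08 for reelin receptors, -0.11 for B cell, -1.01 for lymph node stroma and -0.08 for adipocyte markers. Without the 3 milk or salivary rich libraries, basal markers were at 0.05 and salivary markers at -0.69 in S1pr1_KO against WT, and platelet markers at -0.16 in C3_KO against WT. Medians in S1pr1_KO against C3_KO are not among the 80. Without the 2 B cell rich libraries, other lymphatic genes turned there from 0.38 to -0.10 and blood endothelial markers from 0.15 to -0.20. Fibroblast markers turned from 0.25 to -0.49 and adipocyte markers from 1.5 to -1.24. Further lists turned, and others, such as macrophage markers (0.24 and 0.20), kept their sign. The libraries left out were set apart by the B cell, salivary or milk lists themselves. The falls of the B cell and salivary markers were thus built in and are no test.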

Other observations

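Markers of other cell types were counted beside the lymphatic genes, with 0 passing by edgeR in any list. All 10 B cell markers had a positive log2 fold change in S1pr1_KO against WT (median 4.20), and all 10 passed an unadjusted p of 0.05, beside 15.5% of all genes, with Blk at 4.14 (adjusted p = 0.189 by edgeR) and Cd22 at 3.25 (adjusted p = 0.213 by edgeR). Their summed level was 3.71 to 185 CPM in S1pr1_KO and 3.38 to 5.88 CPM in WT tumours. Without S1pr1_KO replicates 1 and 2, 3 of the 10 were higher and 7 lower (median -0.11). Those libraries were set apart by these same 10 markers, so a fall was built in and is no test. Of 6 lymph node stroma and venule markers tested, 6 were higher in S1pr1_KO against WT (median 1.64), but without those libraries 1 was higher and 5 lower (median -1.01). Their mean log2 CPM was 2.37, 1.07, -2.18 and -1.69 in S1pr1_KO tumours against -0.79, -0.35, -1.26 and -0.95 in WT tumours. Summed, 5.25 to 87.5 CPM in S1pr1_KO tumours stood against 7.21 to 20.5 CPM in WT tumours. The maximum of that list in C3_KO tumours, 7920 CPM, was nearly all Glycam1, which lactating epithelium also makes, in C3_KO replicate 3. Of 7 luminal markers 1 was higher and 6 lower in S1pr1_KO against WT (median -0.34), and of 8 basal markers 1 and 7 (median -0.12). Of 10 fibroblast, 9 adipocyte, 15 macrophage and 8 platelet markers, 10, 9, 11 and 6 were higher in S1pr1_KO against WT, and 9, 8, 10 and 5 in C3_KO against WT. Without S1pr1_KO replicates 1 and 2 the counts higher in S1pr1_KO against WT were 5, 3, 10 and 5. Of 7 skin keratinocyte markers 5 were higher in S1pr1_KO against WT and 6 in C3_KO against WT. The 8 salivary markers had 7 higher in S1pr1_KO against WT (median 5.89), and the 8 milk protein genes had 8 higher in C3_KO against WT (median 6.63). Without the 3 milk or salivary rich libraries, the salivary markers had 4 higher and 4 lower (median -0.69). The milk protein genes then had 6 higher and 2 lower (median 0.49). These lists set those libraries apart, so both falls were built in and are no test.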
